A study of Mus musculus with 8 samples.

Results

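The 4 RNA-seq libraries described here were those labelled TubB and LPS_IFNg_TubB, 4 of 8 in the series, and they were compared by replicate number: replicate 2 against replicate 1 within each label. All libraries came from RAW264.7, an established mouse macrophage line kept in culture, so the samples are repeats of 1 line and not of animals. The labels give 4 groups with 2 libraries each: mock (DMSO vehicle), TubB (Tubuloside B, a phenylethanoid glycoside of Cistanche plants), LPS_IFNg (24 h with 10 ng/ml lipopolysaccharide, abbreviated LPS, plus interferon-gamma, 20 ng/ml) and LPS_IFNg_TubB (the same stimulus with Tubuloside B). The dose of Tubuloside B is not given in the sources used here. Nothing in the labels says whether a replicate number stands for a culture, a day or a preparation, and these cannot be told apart. P-values weigh the replicate shift against how far the labels disagree on it, with information shared across genes. That disagreement may be technical, and the p-values do not measure the spread between independent cultures.

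The levels of the stimulus markers went against the labels. Nos2, the inducible nitric oxide synthase, stood at 155 to 199 CPM (counts scaled to a common library size) in the libraries labelled mock and LPS_IFNg and at 5762 to 7429 CPM in the libraries labelled TubB and LPS_IFNg_TubB. Each group is therefore called here by its library label, and no direction for a treatment is drawn. The deposited totals of assigned reads were 5017410 and 8413834 in TubB replicates 1 and 2, 4767894 and 6443351 in LPS_IFNg_TubB replicates 1 and 2, and 5519706 to 6648055 in the other 4 libraries. Both replicate 2 libraries of the TubB-labelled set were thus deeper than both replicate 1 libraries. The 24 mitochondrial genes in the count table took 0.189% to 0.208% of the reads in the 4 libraries. None of 22 listed mitochondrially encoded genes was found there by name, so this may not be the whole mitochondrial share.

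Macrophages that sense lipopolysaccharide make type I interferon, which acts back on the same cells through a JAK-STAT pathway and turns on antiviral genes that carry an interferon-stimulated response element (ISRE). Interferon-gamma acts through its own receptor and induces guanylate-binding proteins and other GTPases, while NF-kappaB turns on cytokines and chemokines. Activated macrophages are also known for high glycolysis and slow division. In bulk RNA, fewer responding cells and a weaker response in each cell cannot be told apart.

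Isg15, a ubiquitin-like modifier made on interferon signalling, and Rsad2, the antiviral enzyme viperin, were both lower in replicate 2 of each label. Isg15 stood at 82.1 CPM in TubB replicate 1 and 35.1 CPM in replicate 2, and at 79.9 and 41.8 CPM in LPS_IFNg_TubB replicates 1 and 2. Rsad2 stood at 735 and 320.0 CPM in TubB replicates 1 and 2, and at 721 and 376 CPM in LPS_IFNg_TubB replicates 1 and 2. For both genes the 2 replicate 1 libraries were almost level with each other, and both replicate 2 libraries lay below them without overlap. Isg15 fell by 1.08 ± 0.13 (log2, SE), 2.12-fold, with an adjusted p of 2.57e-13 from edgeR's quasi-likelihood test. Rsad2 fell by 1.07 ± 0.05 (log2, SE), 2.10-fold, with an adjusted p of 1.42e-83 in the same test. In the libraries labelled mock and LPS_IFNg, Isg15 lay between 0.849 and 1.26 CPM and Rsad2 between 2.74 and 3.63 CPM. Both genes kept their calls in each fit without 1 library labelled mock or LPS_IFNg. Without 1 of the 4 compared libraries the contrast rests on 1 pair, so a call there does not measure spread among these libraries. Over the fits with 1 of the 8 libraries left out, Isg15 ran from -1.24 to -0.936 (log2). Rsad2 ran from -1.21 to -0.94 (log2) over the same fits. DESeq2 called Rsad2 (adjusted p = 5.72e-25) and gave no adjusted p for Isg15.

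The promoters below are shown as those of 3 named interferon genes whose windows hold the ISRE core (GAAANNGAAA, searched on both strands), in capitals. They run from 150 bases before to 50 bases after the transcription start in the sense of the gene, from RefSeq on GRCm38.p6. Isg15 lies on the minus strand (chr4:156200769-156200968) and Rsad2 on the minus strand (chr12:26456403-26456602). Ifit1, which encodes an RNA-binding antiviral protein, lies on the plus strand (chr19:34640739-34640938).
Isg15: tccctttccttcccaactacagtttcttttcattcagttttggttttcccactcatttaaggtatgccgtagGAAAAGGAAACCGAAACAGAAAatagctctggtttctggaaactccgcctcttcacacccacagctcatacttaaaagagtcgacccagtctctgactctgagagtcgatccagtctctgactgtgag
Rsad2: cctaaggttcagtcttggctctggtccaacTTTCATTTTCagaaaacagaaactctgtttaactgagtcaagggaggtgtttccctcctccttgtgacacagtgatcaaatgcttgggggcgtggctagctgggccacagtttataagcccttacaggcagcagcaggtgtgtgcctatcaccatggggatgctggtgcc
Ifit1: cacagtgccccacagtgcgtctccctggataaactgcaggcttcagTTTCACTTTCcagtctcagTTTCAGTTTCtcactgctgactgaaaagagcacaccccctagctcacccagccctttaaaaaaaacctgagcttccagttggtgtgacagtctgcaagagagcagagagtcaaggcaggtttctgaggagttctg
The capitals in Isg15 hold 3 overlapping matches, from 78 to 57 bases before the start. Rsad2 holds 1 match and Ifit1 2 matches, all on the opposite strand. Of the 36 type I interferon-induced genes that were called, 28 had a promoter in the RefSeq table, with 32 promoters in all. The core was found in 15 of these 32 promoters (46.9%), in 21 of 44 promoters of all tested genes of the list (47.7%) and in 3.44% of all 32851 promoters of the same length. A match is a string of letters and not a measured binding site, and the windows of Cmpk2 and Oasl2, which fell further than Ifit1, held none.

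Over all 11081 genes tested, replicate 2 was higher for 218 genes (1.97%) and lower for 308 genes (2.78%) at an adjusted p under 0.05 in the libraries labelled TubB and LPS_IFNg_TubB. The changes were small. The median log2 fold was 0.39 among the genes called higher and -0.30 among those called lower, and 9 and 6 of them reached 2-fold. Among the largest falls of well-expressed genes were Selenow, Isg15, Rsad2, Cmpk2 and Oasl2, and the largest rises were Sgo2a, Pimreg, Cdc25b, Nuf2, Cfap298 and Rars2. Pimreg and Cfap298 lost their calls without either TubB library and Rars2 without either LPS_IFNg_TubB library. Without scaling beyond library size the split turned to 381 higher and 196 lower, and with libraries scaled on cytosolic ribosomal protein genes it was 228 higher and 130 lower. The counts rested most on the TubB pair: 59 higher and 118 lower were called without TubB replicate 1, and 56 higher and 125 lower without TubB replicate 2, where the contrast comes from the LPS_IFNg_TubB pair alone. Without LPS_IFNg_TubB replicate 2 the count of higher genes was 145. DESeq2 called 18 higher and 79 lower. In this and the other DESeq2 counts, a gene without a DESeq2 adjusted p was counted as not called.

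**Figure D1:**
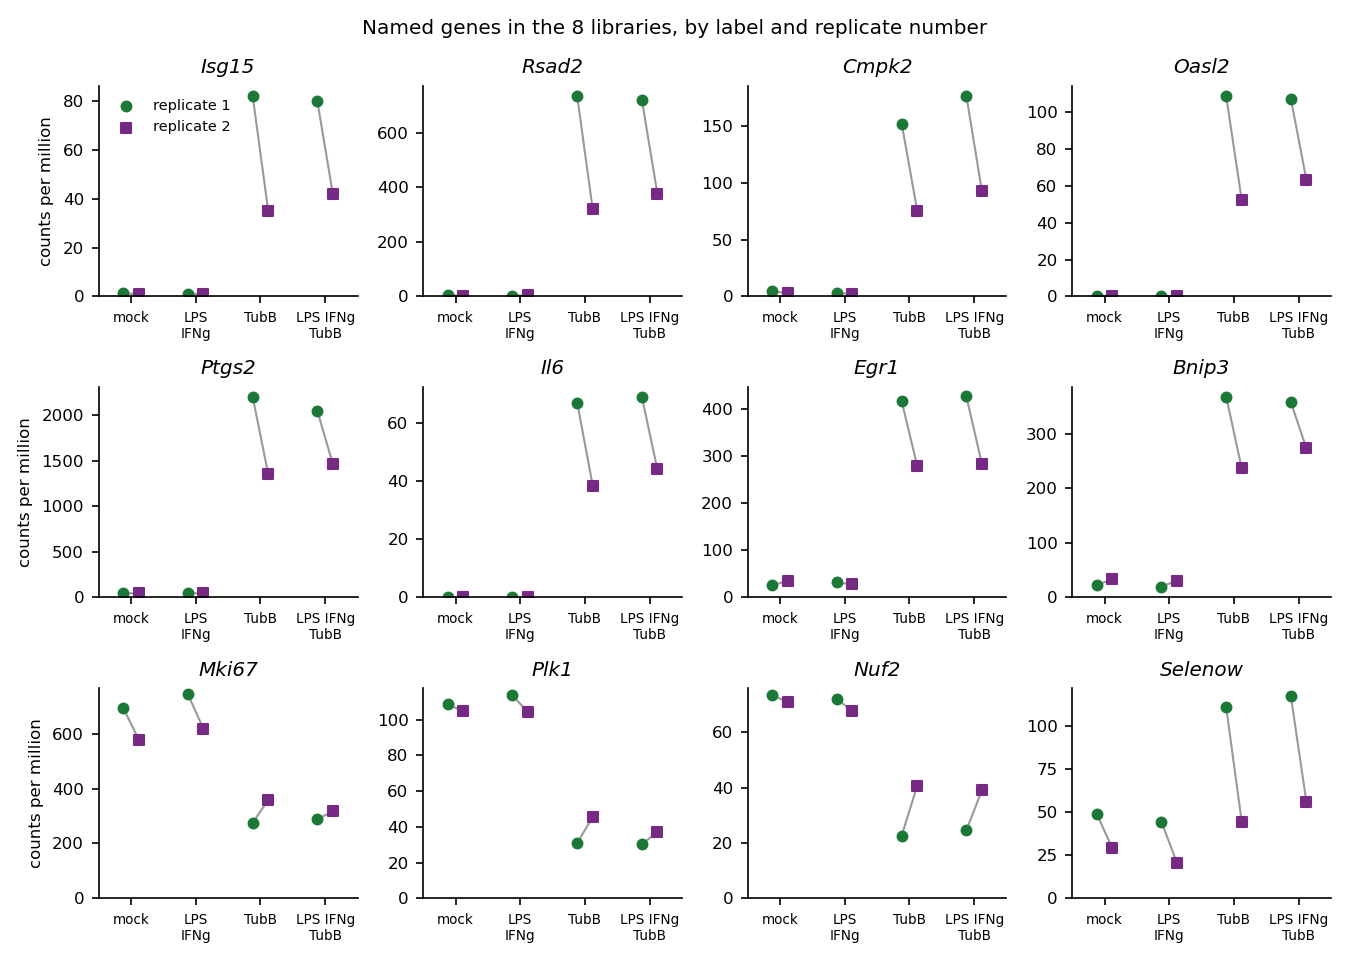
CPM (y axis, linear, from 0) of 12 named genes in the 8 libraries, by label (x axis). Circles are replicate 1, squares replicate 2, and a line joins the 2 libraries of a label; each point is 1 library, with no error bar. In TubB and LPS_IFNg_TubB the interferon genes, Ptgs2, Il6, Egr1, Bnip3 and Selenow lie lower in replicate 2 and Mki67, Plk1 and Nuf2 lie higher.

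Most type I interferon-induced genes were called lower in replicate 2. Of 55 listed genes 49 were tested: 36 were called lower in replicate 2, none was called higher, and 13 did not pass the test. The list's median was -0.53 (log2 fold), beside 0.003 over all genes. Both replicate 2 libraries lay below both replicate 1 libraries for 46 of the 49, beside 22.3% of all genes. Cmpk2, a mitochondrial nucleotide kinase next to Rsad2 in the genome, went from 152 to 75.6 CPM in TubB and from 177 to 92.9 CPM in LPS_IFNg_TubB. It fell by 0.97 ± 0.09 (log2, SE), adjusted p = 6.86e-23 by edgeR. Oasl2, of the oligoadenylate synthetase family, went from 109 to 52.5 CPM and from 107 to 63.3 CPM. It fell by 0.91 ± 0.11 (log2, SE), adjusted p = 2.35e-13 by edgeR.

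Transcription factors and feedback genes of the interferon pathway were lower too, with a range of sizes. Irf7, the factor that amplifies type I interferon, went from 240.3 to 131 CPM in TubB and from 237 to 171 CPM in LPS_IFNg_TubB, and fell by 0.67 ± 0.07 (log2, SE). Usp18, the protease that removes ISG15 and damps the interferon receptor, went from 123 to 68.7 CPM and from 133 to 79.5 CPM, and fell by 0.79 ± 0.10 (log2, SE). Adjusted p was 1.69e-16 for Irf7 and 7.84e-13 for Usp18 (edgeR). Ifit1 fell by 0.73 ± 0.16 and Ifit3 by 0.70 ± 0.19 (log2, SE). The largest estimates, Ddx60 at -1.90 ± 0.59 and Mx2 at -1.86 ± 0.51 (log2, SE), came from genes at 0.88 to 7.58 CPM in the 4 libraries.

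The fall was larger in the TubB pair. The list's median difference was -0.61 (log2 CPM) between the TubB libraries and -0.47 between the LPS_IFNg_TubB libraries, and 41 of 49 genes moved further in the TubB pair, beside 52.2% of all genes. On the level scale the list's median went from 6.44 to 5.91 log2 CPM in TubB and from 6.49 to 5.99 log2 CPM in LPS_IFNg_TubB, against 2.35 to 2.91 log2 CPM in the other 4 libraries. Both replicate 2 libraries thus stayed far above every library labelled mock or LPS_IFNg. Without TubB replicate 1 the count called lower was 16 of 49 and without TubB replicate 2 it was 17, with medians of -0.47 in both. Ifit1, Ifit3, Mx2 and Ddx60 lost their calls there (adjusted p up to 0.74 by edgeR over the libraries left out), Ifit3 and Mx2 also without either LPS_IFNg_TubB library, and Ddx60 without any 1 of the 8 libraries. With library size only 29 of the list were called lower, and with scaling on ribosomal protein genes 26 were. DESeq2 called 13 of the list lower. It gave no adjusted p for some of the others, among them Isg15, Oasl2, Ifit1, Ifit3, Mx2 and Ddx60.

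Of 22 tested genes induced mainly by interferon-gamma, 9 were called lower and none higher, beside 2.78% of all genes called lower. The list's median was -0.25 (log2 fold). The count was 4 without TubB replicate 1 or 2. Gbp5, a guanylate-binding protein of the inflammasome response, went from 672 to 527 CPM in TubB and from 722 to 584 CPM in LPS_IFNg_TubB, and fell by 0.33 ± 0.05 (log2, SE; adjusted p = 4.66e-08, edgeR). Gbp2 did not pass the test, at 1481 and 1332 CPM in TubB replicates 1 and 2 and 1463 and 1371 CPM in LPS_IFNg_TubB (adjusted p = 0.106, edgeR). Iigp1, an immunity-related GTPase, went from 824 to 594 CPM and from 809 to 679 CPM, and fell by 0.36 ± 0.05 (log2, SE). Cd274, the checkpoint ligand PD-L1, fell by 0.36 ± 0.05 (log2, SE) as well. Gbp6 fell by 0.40 ± 0.09 (log2, SE), a call that was lost without either TubB library or LPS_IFNg_TubB replicate 2. In class I antigen presentation 2 of 11 tested genes were called lower, H2-T23 and B2m (-0.29 and -0.19 log2), and both calls were lost without either TubB library. H2-T23 has a numbered copy in the table, so its reads may be split.

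Inflammatory genes were lower in replicate 2 wherever they were called. Among 30 NF-kappaB targets and feedback genes 11 were called lower and none higher (median -0.22 log2), beside 2.78% of all genes called lower. With library size only 6 of the list were called lower, and with scaling on ribosomal protein genes 4 were. The count was 4 without TubB replicate 1 or 2, 6 without LPS_IFNg_TubB replicate 2 and 3 with DESeq2. Ptgs2, which encodes the prostaglandin synthase COX-2, went from 2205 to 1357 CPM in TubB and from 2048 to 1464 CPM in LPS_IFNg_TubB. It fell by 0.59 ± 0.05 (log2, SE), 1.51-fold, adjusted p = 1.12e-35 by edgeR. Traf1 and the costimulatory receptor Cd40 fell by 0.65 ± 0.13 and 0.44 ± 0.06 (log2, SE), and Traf1 lost its call without either TubB library. Nos2 itself went from 6964 to 5762 CPM in TubB and from 7429 to 6156 CPM in LPS_IFNg_TubB, and fell by 0.27 ± 0.04 (log2, SE; adjusted p = 3.7e-09, edgeR). Of 20 tested effector enzymes and surface genes 5 were called lower, among them Ptgs2 and Nos2, and the calls of Cd80 and Clec4e were the weakest. With library size only, and with scaling on ribosomal protein genes, 2 of that list were called lower. The list's count was 2 without any 1 library other than those labelled TubB, and 3 without either of these. Cd80 lost its call without any 1 of the 8 libraries and Clec4e without any but the TubB libraries.

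Of the cytokine and chemokine genes tested, 9 were called lower, beside 2.78% of all genes, and the others did not pass. Il6 went from 67.2 to 38.6 CPM in TubB and from 69.1 to 44.1 CPM in LPS_IFNg_TubB, and fell by 0.73 ± 0.14 (log2, SE; adjusted p = 1.96e-05, edgeR). Il1b, at 16.03 and 11.7 CPM in TubB and 19.7 and 12.1 CPM in LPS_IFNg_TubB, did not pass the test (adjusted p = 0.205, edgeR). Csf3, a granulocyte growth factor, and Il1rn, the interleukin-1 receptor antagonist, both fell, by 0.27 ± 0.05 and 0.26 ± 0.04 (log2, SE). They were the other two of 3 cytokines called among 13 tested (median -0.27 log2), with none higher. Of 11 chemokine genes 6 were called lower and none higher (median -0.37 log2), and 3 were called without TubB replicate 1 or 2. Ccrl2, a chemerin-binding receptor, went from 194 to 113 CPM and from 213 to 133 CPM, and fell by 0.73 ± 0.08 (log2, SE). Ccl5 fell by 0.53 ± 0.11 and Ccl12 by 0.69 ± 0.19 (log2, SE). Cxcl10, at 14.5 and 12.9 CPM in TubB and 20.7 and 13.4 CPM in LPS_IFNg_TubB, did not pass the test (adjusted p = 0.44, edgeR). The calls of Il6, Ccl5 and Ccl12 were lost without either TubB library.

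Among genes that restrain inflammation and immediate early genes, those called were lower in replicate 2 and most did not pass the test. Of 22 tested negative regulators 9 were called lower and none higher (median -0.22 log2), beside 2.78% of all genes called lower. Dusp1, a MAP kinase phosphatase, went from 175 to 126 CPM in TubB and from 178 to 127 CPM in LPS_IFNg_TubB, and fell by 0.48 ± 0.08 (log2, SE). Of 21 tested immediate early genes 9 were called lower and none higher (median -0.26 log2). Egr1, a serum-responsive transcription factor, went from 416 to 279 CPM and from 426 to 283 CPM, and fell by 0.58 ± 0.06 (log2, SE; adjusted p = 1.88e-20, edgeR). Fos, Ier3 and Atf3 fell by 0.50 ± 0.11, 0.50 ± 0.05 and 0.37 ± 0.05 (log2, SE). DESeq2 did not call Egr1, Ier3 or Fos (adjusted p = 0.0826, 0.0845 and 0.21). It called Dusp1 and Atf3 (adjusted p = 0.049 and 0.000126, DESeq2). Fos lost its call without either LPS_IFNg_TubB library, and Ier3 has a numbered copy in the table.

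**Figure D2:**
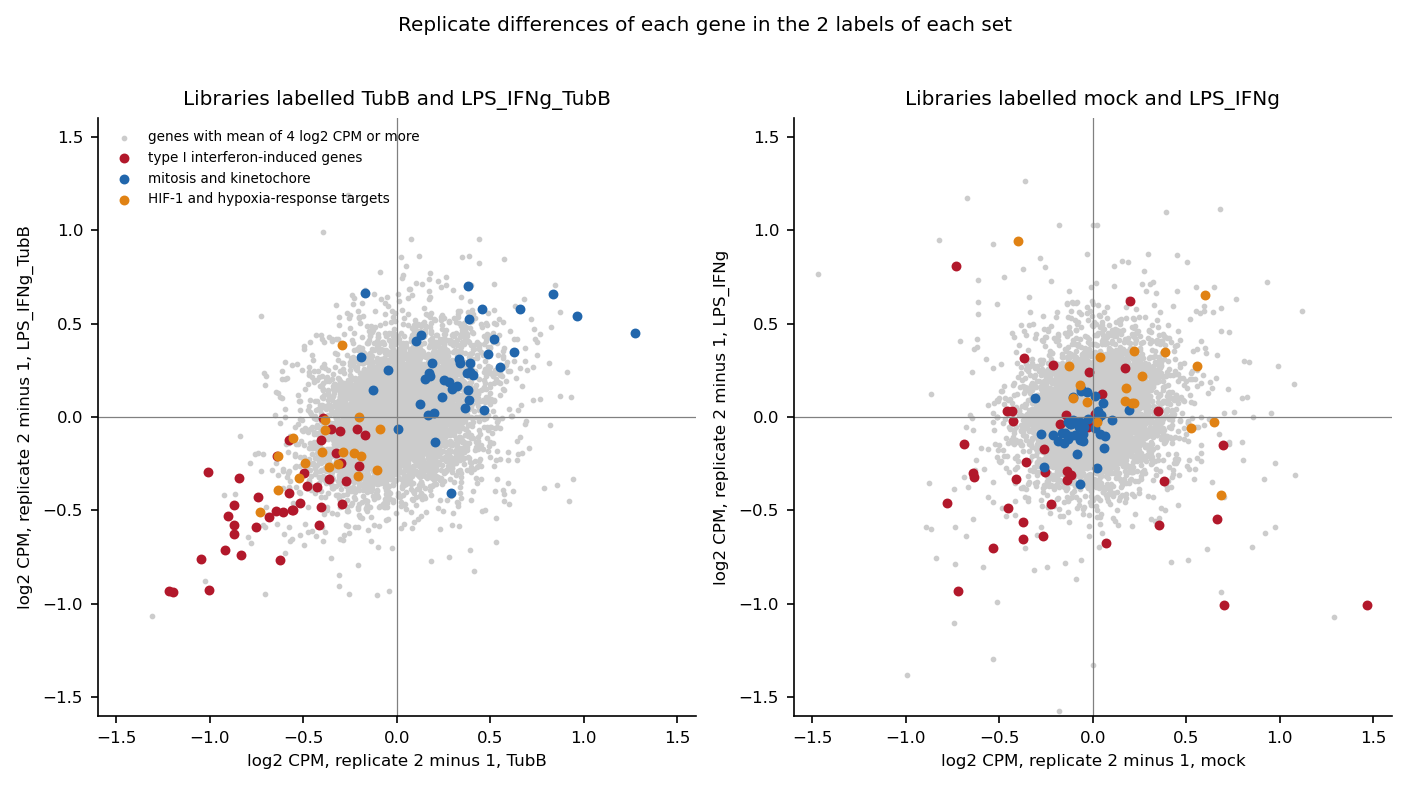
Each point is 1 gene whose mean over the 4 libraries labelled TubB and LPS_IFNg_TubB reached 4 log2 CPM (7579 genes, the same in both panels). Axes give log2 CPM of replicate 2 minus replicate 1 in one label (x) against the other (y), for each set of libraries, with 3 lists in colour. On the left the type I interferon-induced and HIF-1 genes lie mostly below 0 in both labels and the mitosis genes mostly above; on the right 8 genes lie beyond the axes.

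Some HIF-1 targets and glycolysis genes were called lower in replicate 2, beside 2.78% of all genes called lower and 1.97% called higher. HIF-1 is the transcription factor of the hypoxia response and is also active in stimulated macrophages. Of 25 tested HIF-1 targets 9 were called lower and none higher (median -0.28 log2). Ndrg1, a hypoxia-induced stress gene, went from 397 to 239 CPM in TubB and from 349 to 246 CPM in LPS_IFNg_TubB, and fell by 0.62 ± 0.06 (log2, SE; adjusted p = 4.48e-16, edgeR). DESeq2 did not call Ndrg1 (adjusted p = 0.706). In the other labels Ndrg1 moved both ways, from 21.1 to 34.0 CPM in mock and from 32.8 to 24.5 CPM in LPS_IFNg. Bnip3, a mitophagy receptor, went from 368 to 236 CPM and from 358 to 273 CPM, and fell by 0.52 ± 0.06 (log2, SE; adjusted p = 8.62e-15, edgeR). Fam162a fell by 0.43 ± 0.07 (log2, SE), a call lost without either TubB library. Of 23 tested genes of glycolysis and lactate export 9 were called lower and 2 higher (median -0.13 log2). Pfkp, a phosphofructokinase, and Pfkfb3, which makes its activator, fell by 0.25 ± 0.05 and 0.32 ± 0.09 (log2, SE). Pfkfb3 lost its call without either TubB library or LPS_IFNg_TubB replicate 2. The glucose transporter gene Slc2a3 was called the other way, 0.50 ± 0.16 (log2, SE), and lost that call without any 1 library. Without TubB replicate 1 or 2 the counts called lower were 4 of the HIF-1 list and 2 of the glycolysis list.

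The cell division genes that were called were higher in replicate 2. Of 45 tested genes of mitosis and the kinetochore 16 were called higher in replicate 2, none was called lower and 29 did not pass the test, with a median of 0.24 (log2 fold). Both replicate 2 libraries lay above both replicate 1 libraries for 33 of the 45, beside 22.5% of all genes. Nuf2, a kinetochore protein that binds microtubules, went from 22.6 to 40.6 CPM in TubB and from 24.6 to 39.0 CPM in LPS_IFNg_TubB. It rose by 0.76 ± 0.14 (log2, SE), 1.69-fold, adjusted p = 5.37e-06 by edgeR. Cdc25b, the phosphatase that switches on the mitotic kinase, went from 21.3 to 41.8 CPM and from 25.9 to 37.8 CPM, and rose by 0.76 ± 0.14 (log2, SE). Sgo2a, which protects cohesion at centromeres, went from 12.5 to 30.8 CPM and from 15.2 to 20.8 CPM, and rose by 0.90 ± 0.18 (log2, SE).

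Top2a, the topoisomerase that untangles chromosomes, went from 304 to 398 CPM in TubB and from 298 to 352 CPM in LPS_IFNg_TubB, and rose by 0.32 ± 0.06 (log2, SE; adjusted p = 1.72e-06, edgeR). Mki67, which coats mitotic chromosomes, went from 275 to 359 CPM and from 288 to 318 CPM, and rose by 0.27 ± 0.06 (log2, SE; adjusted p = 0.000196, edgeR). Plk1, the polo-like kinase, went from 31.0 to 45.5 CPM and from 30.5 to 36.8 CPM, and rose by 0.42 ± 0.12 (log2, SE; adjusted p = 0.0205, edgeR). All 3 genes stayed below every library labelled mock or LPS_IFNg, where Mki67 lay between 579 and 744 CPM and Plk1 between 104 and 114 CPM. Without TubB replicate 1 or 2 the list had 5 genes called higher, and Mki67, Plk1, Sgo2a and Cdc25b lost their calls. DESeq2 called 3 genes of the list.

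Promoters of 3 mitosis genes are shown because they carry the cell cycle genes homology region (CHR, TTTGAA, searched on both strands), the element through which cell cycle genes are known to be repressed outside division. They cover the same stretch around the start, from RefSeq on GRCm38.p6, with the CHR in capitals: Mki67 on the minus strand (chr7:135716330-135716529), Top2a on the minus strand (chr11:99024140-99024339) and Plk1 on the plus strand (chr7:122159285-122159484).
Mki67: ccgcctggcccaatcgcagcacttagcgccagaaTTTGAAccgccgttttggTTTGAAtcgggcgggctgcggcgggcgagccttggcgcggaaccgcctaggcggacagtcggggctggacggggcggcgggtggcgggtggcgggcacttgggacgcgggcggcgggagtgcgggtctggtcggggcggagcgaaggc
Top2a: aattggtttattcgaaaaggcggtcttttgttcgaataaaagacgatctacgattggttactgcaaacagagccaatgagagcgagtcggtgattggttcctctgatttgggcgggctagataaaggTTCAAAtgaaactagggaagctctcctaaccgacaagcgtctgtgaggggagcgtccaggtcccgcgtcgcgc
Plk1: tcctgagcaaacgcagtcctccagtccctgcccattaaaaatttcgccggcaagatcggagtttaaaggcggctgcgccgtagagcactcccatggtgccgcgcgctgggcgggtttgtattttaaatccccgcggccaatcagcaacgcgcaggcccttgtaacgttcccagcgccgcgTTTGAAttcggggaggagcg
Mki67 holds 2 matches, 116 and 98 bases before the start. Top2a holds 1 match in the printed stretch, on the opposite strand and starting 23 bases before the start of transcription, and Plk1 holds 1 match after its start. The letters were found in 28 of 43 promoters of the tested mitosis genes (65.1%), in 8 of 13 promoters of those called (61.5%) and in 17.9% of all promoters of the same length. The windows of Cdc25b and Nuf2 and the first of the 2 windows of Sgo2a held no match. The ISRE core was in 4.65% of the mitosis promoters.

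Of 44 tested DNA replication genes 9 were called higher and none lower (median 0.19 log2), and 35 did not pass the test. Rfc5, a subunit of the clamp loader, went from 36.5 to 61.1 CPM in TubB and from 42.2 to 56.5 CPM in LPS_IFNg_TubB, and rose by 0.59 ± 0.11 (log2, SE), a call lost without either TubB library. Clspn, a replication checkpoint protein, went from 55.1 to 79.2 CPM and from 49.1 to 69.7 CPM, and rose by 0.51 ± 0.10 (log2, SE). Tk1, thymidine kinase, rose by 0.53 ± 0.16 (log2, SE), a call lost without mock replicate 1 or either TubB library and in libraries thinned to equal depth. Mcm5, a helicase subunit, did not pass the test, at 149 and 156 CPM in TubB and 146 and 161 CPM in LPS_IFNg_TubB. Without TubB replicate 1 or 2 the list had 1 gene called. Among 20 genes of G1 control 3 were called higher and 1 lower (median 0.16 log2). Over all genes 1.97% were called higher and 2.78% lower, and the single lower call lies near that share. Ccnd1, cyclin D1, went from 227 to 340.0 CPM and from 243 to 295 CPM. It rose by 0.44 ± 0.06 (log2, SE; adjusted p = 1.92e-11, edgeR). Foxm1 and E2f8 rose by 0.37 ± 0.10 and 0.47 ± 0.14 (log2, SE), calls that were lost without either TubB library.

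**Figure D3:**
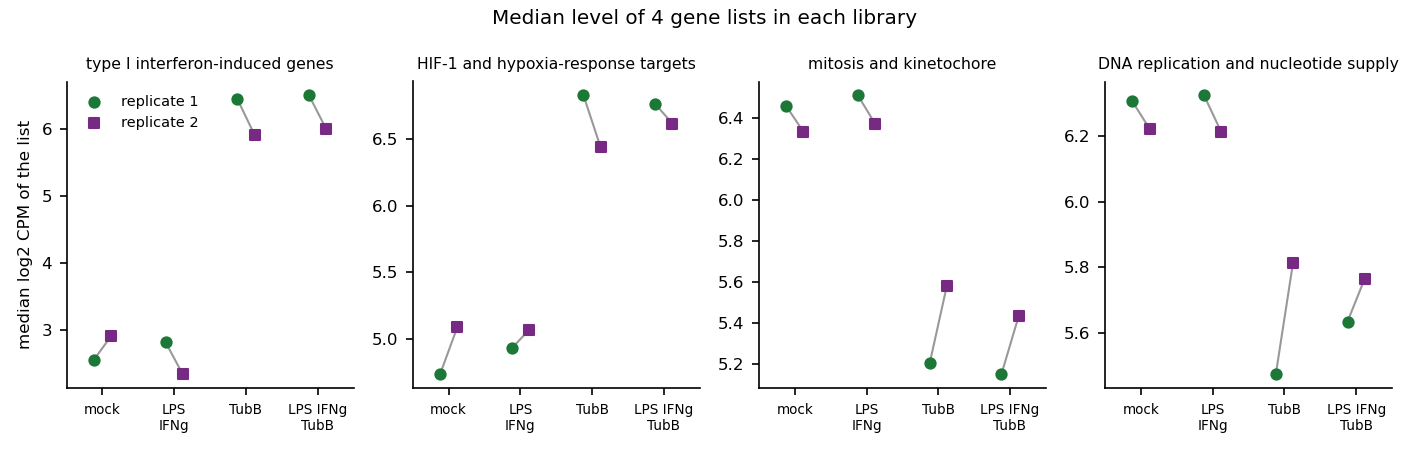
Median log2 CPM (y axis, not from 0) of the tested members of 4 lists in each library, by label (x axis). Circles are replicate 1 and squares replicate 2. In TubB and LPS_IFNg_TubB the type I interferon and HIF-1 medians are lower in replicate 2 and the mitosis and DNA replication medians are higher, while all 4 libraries stay apart from those labelled mock and LPS_IFNg.

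Some p53 targets and genes of biosynthesis were called, beside 1.97% higher and 2.78% lower of all genes. Of 26 tested p53 targets 5 were called lower and none higher (median -0.20 log2). Mdm2, the p53 ubiquitin ligase, went from 1279.7 to 986 CPM in TubB and from 1319 to 1039 CPM in LPS_IFNg_TubB, and fell by 0.36 ± 0.05 (log2, SE; adjusted p = 6.78e-12, edgeR). Gadd45b and Sesn2 were called lower, at -0.33 and -0.32 (log2). Gadd45b lost its call without either TubB library and Sesn2 without any 1 of the 8 libraries. Among targets of the liver X receptor 3 of 13 were called higher, led by the desaturase Scd2, from 205 to 287 CPM and from 193 to 249.7 CPM (0.43 ± 0.06 log2, SE, adjusted p = 2.06e-10, edgeR). Fasn, fatty acid synthase, and Acaca, acetyl-CoA carboxylase, rose by 0.25 ± 0.06 and 0.32 ± 0.10 (log2, SE). Fasn lost its call without either TubB library and Acaca without any 1 library. In cholesterol synthesis 2 of 24 were called higher (Idi1 and Cyp51) and in the tricarboxylic acid cycle 2 of 25 (Mdh1 and Idh1), with none lower in either list. Idi1 and Cyp51 lost their calls without any 1 of the 4 libraries compared, Mdh1 without either LPS_IFNg_TubB library and Idh1 without any 1 of the 8.

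Among ATF4 targets 5 of 22 were called higher and 1 lower, with Psat1 of serine synthesis at 0.46 ± 0.06 and Shmt2 of one-carbon metabolism at 0.39 ± 0.07 (log2, SE). Psat1 went from 159 to 222 CPM in TubB and from 158 to 214 CPM in LPS_IFNg_TubB. Of 22 genes of the unfolded protein response 4 were called higher and none lower, with Pdia4 at 0.36 ± 0.06 and Xbp1 at 0.35 ± 0.08 (log2, SE). Of 32 ribosome biogenesis genes 6 were called higher and none lower (0 to 2 with any 1 library left out), with Polr1b, Nop56 and Utp20 at 0.43, 0.28 and 0.24 (log2). Pdia4, Xbp1 and Nop56 lost their calls without either LPS_IFNg_TubB library, Nop56 and Xbp1 also without either TubB library, and Polr1b and Utp20 without any 1 library. Of 46 cytosolic ribosomal protein genes 0 were called by edgeR and 0 by DESeq2, with 10 (all lower) at an unadjusted p under 0.05 in edgeR, and their median was -0.05 (log2). Without LPS_IFNg_TubB replicate 1, 4 genes of the list were called lower, and without replicate 2, 1 was. Rplp1 was among them, at -0.20 and -0.19 (log2). NRF2 targets were mixed, with 1 of 25 called higher (Gclm) and 3 lower, among them Txnrd1 and Sqstm1 at -0.26 and -0.22 (log2). Heat shock chaperones were mixed too, with 2 of 15 called higher (Hspa8 and Hspd1) and 1 lower (Hsp90aa1). Over all genes 1.97% were called higher and 2.78% lower, and single calls in these lists lie near that share. Of 32 lysosomal genes 4 were called lower, with Gla, Npc2 and Psap at -0.30, -0.23 and -0.19 (log2). Gclm lost its call without any 1 library, Hspa8, Gla and Npc2 without either TubB library, and Hspd1 and Hsp90aa1 without either TubB library or any library labelled mock or LPS_IFNg.

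**Figure D4:**
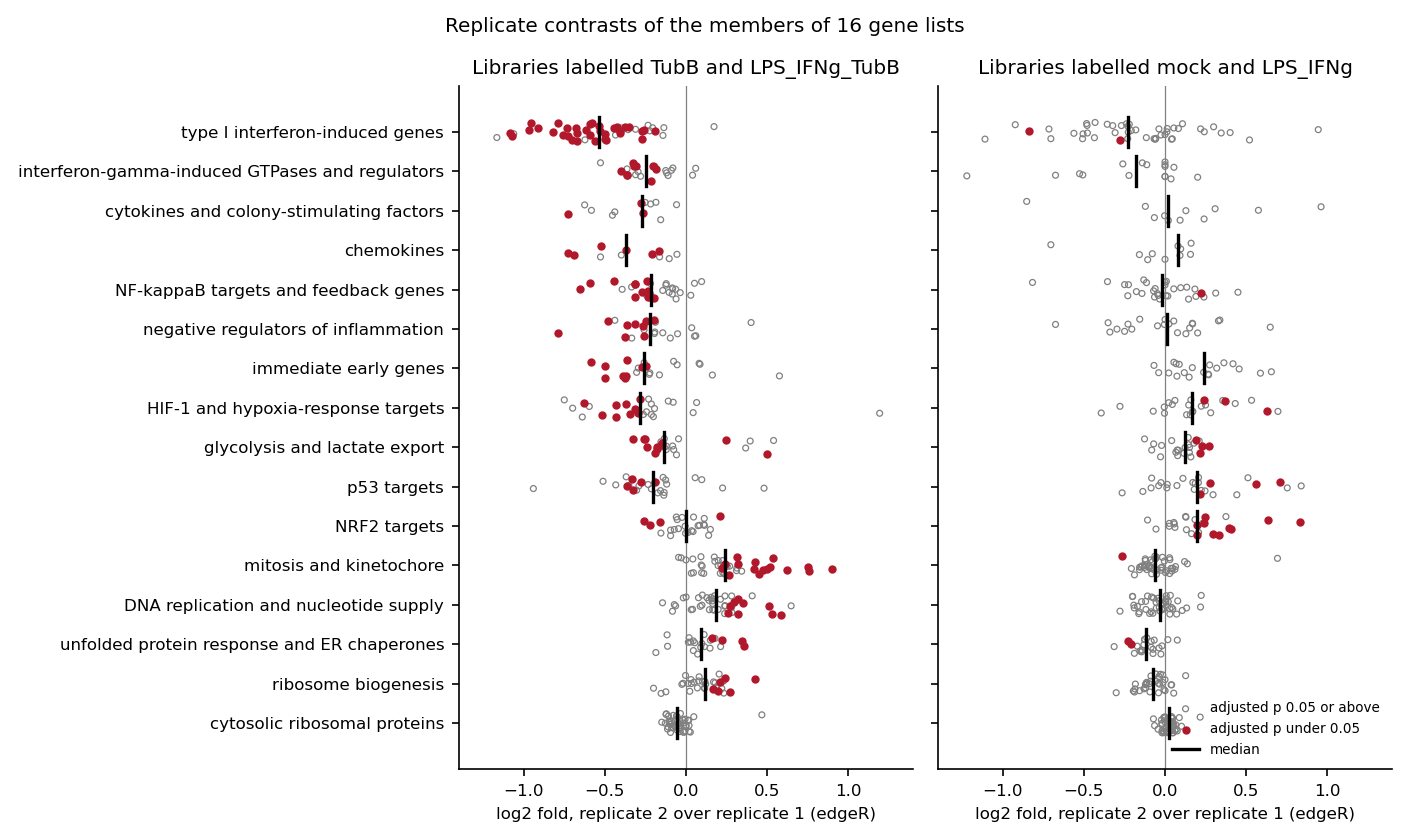
Log2 fold of replicate 2 over replicate 1 from edgeR (x axis) for the tested members of 16 gene lists (rows), in the libraries labelled TubB and LPS_IFNg_TubB (left) and mock and LPS_IFNg (right). Filled points have an adjusted p under 0.05 and black bars are list medians; 3 points on the left and 14 on the right lie beyond the axes. The left panel has interferon, inflammatory and HIF-1 lists below 0 and cell cycle lists above 0, and the right panel has HIF-1, p53 and NRF2 medians above 0.

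Markers of the macrophage line and of other cells were read beside these lists. Of 19 tested macrophage genes 2 were called higher, Cx3cr1 and Csf1r, and 1 lower, Lgals3, beside 1.97% and 2.78% of all genes. Cx3cr1, the fractalkine receptor, went from 8.56 to 17.2 CPM in TubB and from 10.6 to 14.7 CPM in LPS_IFNg_TubB, against 114 to 145 CPM in the other libraries, and rose by 0.75 ± 0.19 (log2, SE). That call was lost without either TubB library, and that of Csf1r without any 1 of the 4 libraries compared. Csf1r, the receptor for the macrophage growth factor, stood at 184 and 216 CPM in TubB and 179 and 215 CPM in LPS_IFNg_TubB. Of 10 neutrophil genes 2 were tested and S100a8 was called lower, of 9 dendritic cell genes 2 were tested and neither was called, and no gene of the lymphocyte list (12 genes, 10 at 0 counts in all 8 libraries) or of the fibroblast and epithelial list (11 genes, 6 at 0) had enough counts to be tested. Of 10 tested osteoclast genes 1, Ctsk, was called lower (-0.12 log2). S100a8 and Ctsk lost their calls without either TubB library or any library labelled mock or LPS_IFNg. Of 3 tested nuclear long noncoding RNAs 0 were called by edgeR and 0 by DESeq2, with 1 at an unadjusted p under 0.05 in edgeR, and Neat1 stood at 340.0 and 418 CPM in TubB and 433 and 417 CPM in LPS_IFNg_TubB. Of these RNAs 1 was called lower without either TubB library and 2 were called higher without either LPS_IFNg_TubB library. Neat1 was one of those called higher there (adjusted p = 0.000527 and 0.000838, edgeR), as the dendritic cell gene Xcr1 was called lower there (adjusted p = 0.0169 and 0.0208, edgeR).

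Selenow, which encodes a small selenoprotein, was the largest fall among well-expressed genes and did not belong to any of the lists. It went from 111 to 44.6 CPM in TubB and from 117 to 56.0 CPM in LPS_IFNg_TubB, and fell by 1.19 ± 0.10 (log2, SE; adjusted p = 5.18e-28, edgeR). It was lower in replicate 2 of the other labels too, from 49.0 to 29.1 CPM in mock and from 44.4 to 20.6 CPM in LPS_IFNg, with a fall of 0.91 ± 0.12 (log2, SE) and an adjusted p of 2.2e-10 by edgeR. Some other selenoprotein genes were then looked up, after the values had been seen. Selenoh was not in that lookup and was called lower in both sets. It stood at -0.52 ± 0.13 in the TubB-labelled set and -0.75 ± 0.10 in the other (log2, SE). Gpx1, a glutathione peroxidase, fell by 0.61 ± 0.06 in the TubB-labelled set and by 0.66 ± 0.06 in the other (log2, SE). Sephs2, which makes the selenium donor, rose by 0.49 ± 0.07 and 0.29 ± 0.06 (log2, SE), while Selenof, at -0.0011 ± 0.06, and Selenom, at -0.13 ± 0.18, did not pass the test. Gpx4, a peroxidase of lipid peroxides, did not pass either, at -0.07 in the TubB-labelled set and 0.14 in the other (log2). Txnrd1, a thioredoxin reductase, was called lower at -0.26 in the TubB-labelled set and stood at 0.13 in the other, where it was not called (log2).

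The replicate difference was then measured in the libraries labelled mock and LPS_IFNg with the same model. Replicate 2 was higher for 51 genes (0.46%) and lower for 33 genes (0.298%). In that set 1 of 45 mitosis genes was called lower and none higher (median -0.06 log2). Of 49 type I interferon genes 2 were called lower (median -0.23 log2). The smaller counts there hold for that list as a whole, with a median level of 2.35 to 2.91 log2 CPM, and not for each gene called. HIF-1, p53 and NRF2 targets had 3 of 25, 4 of 26 and 10 of 25 genes called higher, and none lower, in the libraries labelled mock and LPS_IFNg. Leaving out 1 library moved these counts to between 7 and 92 higher and between 7 and 66 lower. They fell to 7 and 7 without mock replicate 1 or mock replicate 2, and to 13 and 9 without LPS_IFNg replicate 1 or 2. Without either TubB library they were 92 higher and 66 lower, without LPS_IFNg_TubB replicate 1 they were 91 and 62, and without LPS_IFNg_TubB replicate 2 they were 88 and 52.

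The 2 replicate contrasts share no library, and their difference was tested as a term of the same fit. It was below 0 for 211 genes (1.9%) and above 0 for 177 genes (1.6%), which means that replicate 2 minus replicate 1 was lower, or higher, in the libraries labelled TubB and LPS_IFNg_TubB. All 15 mitosis genes, all 7 DNA replication genes and all 10 unfolded protein response genes whose difference was called had it above 0. All 10 HIF-1 targets, all 7 p53 targets and all 9 immediate early genes called had it below 0, as had 14 of 15 glycolysis genes. For type I interferon genes the difference was called for 4 of 49, all below 0. Isg15 was not among them, with a difference of -0.60 ± 0.62 (log2, SE) and 5 to 9 counts in each library labelled mock or LPS_IFNg. Rsad2 passed narrowly, at -1.01 ± 0.32 (log2, SE; adjusted p = 0.0471, edgeR). Without a mock library the difference was called for 49 genes below 0 and 38 above, without an LPS_IFNg library for 68 and 51, and without a TubB library for 116 and 70.

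Of the genes called in the TubB-labelled set, 30 (5.70%) were also called in the other set, where they made up 35.7% of the calls. The direction was the same for 12 of these, 9 lower and 3 higher, and opposite for 18. Cdkn1a and its numbered copy are both counted among the 18. Mki67 was among the opposite ones. It rose by 0.27 ± 0.06 (log2, SE) in the TubB-labelled set, while it went from 694 to 579 CPM in mock and from 744 to 618 CPM in LPS_IFNg, a fall of 0.27 ± 0.05 (log2, SE). Bnip3 was opposite too, with 22.1 and 33.6 CPM in mock replicates 1 and 2 and 19.4 and 30.7 CPM in LPS_IFNg, a rise of 0.63 (log2) in that set (adjusted p = 7.77e-05, edgeR). Mdm2, Fasn, Acaca, Sqstm1 and Lgals3 also had opposite calls. Nos2 was lower in replicate 2 of both sets, by 0.27 and 0.22 (log2). Oas2 was lower in both too, at -0.58 ± 0.10 in the TubB-labelled set and -0.84 ± 0.17 in the other (log2, SE). In the same order Adar stood at -0.23 ± 0.06 and -0.27 ± 0.07 and Rnf213 at -0.50 ± 0.05 and -0.28 ± 0.06 (log2, SE). Ifi27 stood at -0.20 ± 0.06 and -0.29 ± 0.07 (log2, SE).

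Within the 4 libraries the replicate number accounted for more of the spread than the label. Genes whose mean reached 4 log2 CPM had a median absolute difference of 0.132 (log2) between the TubB replicates and 0.120 between the LPS_IFNg_TubB replicates, beside 0.104 and 0.0929 between the labels at replicate 1 and at replicate 2. The mean chi-square per gene, which is 1 for pure sampling noise, was 4.74 between the TubB replicates and 3.23 between the LPS_IFNg_TubB replicates, beside 1.94 and 2.29 between the labels at the same number. The order was the same in the other libraries. There it was 2.87 between the mock replicates and 2.55 between the LPS_IFNg replicates, beside 1.97 and 1.92 between those labels at the same number. The first principal component held 51.0% of the variance and put both replicate 1 libraries at -7.47 and -7.73 and both replicate 2 libraries at 8.83 and 6.38. Across 7579 genes the differences of the 2 labels had a Pearson correlation of 0.323 and a Spearman correlation of 0.300, beside 0.153 and 0.175 for mock against LPS_IFNg. These are correlations across genes of libraries that share their depth order, and genes are not independent replicates. No gene passed the test between the labels LPS_IFNg_TubB and TubB (0 of 11081, 0%) by edgeR, DESeq2 or limma-voom, and 269, 87 and 274 genes had an unadjusted p under 0.05. With the replicate number as a block, edgeR called 3 genes higher and 2 lower.

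Depth went with the replicate number in these 4 libraries. With all libraries thinned to 4767894 reads, 188 genes were called higher and 273 lower, of which 421 were among the 526 called at full depth. In the thinned libraries 32 of 49 type I interferon genes were called lower and 15 of the 44 mitosis genes then tested higher, with medians of -0.54 and 0.26 (log2). The part of a shared culture day or preparation in it was not tested.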

How the data were processed

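RNA-seq of RAW264.7 cells gave 8 libraries, 2 for each of 4 labels. The authors deposited whole-number read-pair counts per gene, made with STAR 2.7.0 per the submitters' processing notes and featureCounts 2.0.1 on RefSeq genes of GRCm38.p6 per the file headers, with no strand or multi-mapping option. They also deposited log2 values (regularised log, per the file name), used only as an alternative. Totals ran from 4767894 to 8413834 counts per library, which sets the precision of low genes. Groups and replicate numbers came from the labels.

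Genes were kept with edgeR's filterByExpr (minimum count 10, minimum total 15), leaving 11081 of 42454. Libraries were scaled by TMM, and CPM values are on that scale. All 8 libraries entered one edgeR quasi-likelihood fit (edgeR 4.0.16, limma 3.58.1, R 4.3.3) with a term for each label and a replicate term for each set, leaving 2 residual degrees of freedom. Calls used Benjamini-Hochberg adjusted p under 0.05 over all genes. The fit was tested on simulated data.

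The named genes were Isg15, Rsad2 and a fixed panel of activation and cell cycle genes, the 6 largest rises and 6 largest falls among genes averaging 4 log2 CPM or more, and up to 3 called members of each list, or the 2 with the smallest p. Of the genes this rule selects, 2 are not reported here. Members and lists were chosen with earlier results of these data known. Alternatives were other scalings and filters, DESeq2 1.42.0, limma-voom, limma on the deposited values, the 4 libraries alone and each library left out. Thinning to equal depth and scaling on ribosomal protein genes were chosen after seeing the data.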

Additional observations from a re-analysis of the deposited data

Results flagged for a closer look

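The replicate difference was not the same in both sets of libraries for 58 of the 97 named genes reported here. For these the replicate 2 minus replicate 1 contrast in the libraries labelled TubB and LPS_IFNg_TubB, less that in the libraries labelled mock and LPS_IFNg, had an adjusted p under 0.05 in edgeR's quasi-likelihood test. Over all 11081 genes it was called below 0 for 1.9% and above 0 for 1.6%, and the named genes were mostly chosen by their calls in one of the 2 contrasts, so their share is no measure of how common the difference is. The values in parentheses are that difference on the log2 scale, 29 of them below 0 and 29 above 0. Among interferon, inflammatory and immediate early genes the difference was below 0 for Rsad2 (-1.01), Cd274 (-0.56), B2m (-0.27), Ptgs2 (-0.61), Csf3 (-0.58), Il1rn (-0.39), Cd80 (-0.56), Dusp1 (-0.81), Atf3 (-0.54), Egr1 (-0.73), Fos (-0.92) and Ier3 (-0.52). It was below 0 as well for the p53 targets Mdm2 (-0.58), Gadd45b (-0.63) and Sesn2 (-0.53). In glycolysis and the hypoxia response it was below 0 for Pfkfb3 (-0.53), Pfkp (-0.43), Ndrg1 (-0.78), Bnip3 (-1.15) and Fam162a (-0.59). Stress, lysosomal and macrophage genes with a difference below 0 were Txnrd1 (-0.38), Sqstm1 (-0.46), Gclm (-0.43), Hsp90aa1 (-0.22), Gla (-0.52), Npc2 (-0.27), Psap (-0.22), Ctsk (-0.24) and Lgals3 (-0.46). Cell division genes had a difference above 0, namely Mki67 (0.53), Top2a (0.37), Plk1 (0.51), Tk1 (0.73), Sgo2a (0.87), Pimreg (0.71), Cdc25b (0.71), Nuf2 (0.83), Rfc5 (0.62), Clspn (0.57) and Ccnd1 (0.38). Metabolic and biosynthetic genes above 0 were Mdh1 (0.29), Cyp51 (0.59), Scd2 (0.58), Acaca (0.60), Fasn (0.52), Nop56 (0.46), Utp20 (0.33), Psat1 (0.50) and Shmt2 (0.46). Chaperone and secretory genes above 0 were Pdia4 (0.53), Xbp1 (0.42), Manf (0.41), Hspa8 (0.27) and Hspd1 (0.25). The remaining genes above 0 were Cfap298 (0.81), Cx3cr1 (0.94), Csf1r (0.25) and Kcnq1ot1 (0.91). In 7 of the 58 the contrast was called in both sets in opposite directions. The part of depth or preparation in these differences was not tested. With 2 libraries in each group no sample could be tested for standing apart from its group.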

How the results depend on the processing

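List medians kept their sign under every setting run, except those of ribosomal proteins, NRF2 targets and nuclear long noncoding RNAs, but the number of calls moved. In the libraries labelled TubB and LPS_IFNg_TubB, 218 genes were higher and 308 lower in replicate 2. These became 381 and 196 with library size only, 18 and 79 with DESeq2, and 9 and 6 with a 2-fold minimum. The count higher was 135 with the 4 libraries alone, and the count lower was 130 with scaling on ribosomal protein genes. Leaving out 1 library gave 56 to 154 higher and 118 to 295 lower. In the libraries labelled mock and LPS_IFNg the 51 higher and 33 lower became 18 and 7 with DESeq2 and 0 and 3 with a 2-fold minimum, and 7 to 92 and 7 to 66 with 1 library left out. The difference of the contrasts, 177 above 0 and 211 below, became 25 and 84 with DESeq2 and 16 and 8 with a 2-fold minimum, and 38 to 207 and 49 to 296 with 1 library left out; with library size only 343 were above 0. The cause of these shifts was not tested.

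Of the 87 named genes called and reported here, 35 kept the call whichever of the 8 libraries was left out, and 29 of these were also called by DESeq2. Leaving out 1 of the 4 compared libraries leaves 1 pair, so a call kept there is no measure of spread among them. Genes to which DESeq2 gave no adjusted p, among them Isg15 and Oasl2, count as not called by it. Without TubB replicate 1 or 2, Neat1 turned to -0.056 and -0.058 and Kcnq1ot1 to -0.15 and -0.16 (log2). Without LPS_IFNg_TubB replicate 2 they stood at 0.30 and 0.86, and Neat1 was then called (adjusted p = 0.000838, edgeR).

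With the replicate number as a replicate block, the comparison of LPS_IFNg_TubB with TubB had 3 genes higher and 2 lower, beside 0 and 0 without it. The labels do not say that equal numbers share a culture or day. Across genes the differences of the 2 labels had a Pearson correlation of 0.323. Low counts limit Isg15, Il6 and some other interferon and inflammatory genes in the libraries labelled mock and LPS_IFNg.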
